A study of Homo sapiens with 9 samples.

Results

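RNA-seq measured the response of BxPC3 cells to WB436B, a compound known here by its code name and used at 0.1 µM. BxPC3 is an established human cell line of pancreatic ductal adenocarcinoma, kept in RPMI medium with serum. The series set the compound beside small interfering RNA against STAT3, and it held 9 libraries in all. The comparison used 3 libraries of vehicle-treated cells and 3 of WB436B-treated cells, each from total RNA of the one cell line with no engineered allele. In the main fit the 3 siRNA libraries entered only the estimate of the spread. Among the alternatives they also entered the scalings between libraries and some of the filters. The labels call the libraries biological replicates and say no more of separate cultures, so p-values here reflect library-to-library spread alone, which may be technical. The sources used here do not give the time under the compound or the kind of vehicle, and 1 cell line at 1 dose limits the comparison as a model.

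Levels are given in FPKM, in which fragments are divided by transcript length and by the library's mapped fragments. A gene was tested if it reached 1 FPKM in at least 3 of the 6 libraries, which kept 12060 of 60564 identifiers. At the edge of that filter, 1178 genes reached 1 FPKM in exactly 3 libraries and 511 missed it with exactly 2. Of the tested genes, 938 reached 1 FPKM in the 3 vehicle libraries alone and 122 in the 3 WB436B libraries alone. Such genes passed only through the group where they were high, so their direction was set by the filter, and what is said of them is a description that carries no test. Of the genes named below, 31 are of this kind. ALDH1A1, BMF, C1R, CD86, CP, CXCL14, DUOX1, DUOX2, DUOXA2, GBP2, IRF5, MUC2, MXD4, NGFR, PIGR, PSCA, SOX2, THBS3, TJP3, TP53INP1 and WNT4 reached 1 FPKM under vehicle alone, and CSF2, CTGF, EDN1, IGFBP5, IL37, MYL9, PDCD1LG2, RGS4, RNASE7 and TNFRSF8 under WB436B alone. Counts of lists include such members unless said otherwise, and the counts without them are given for the whole table, for the classes and for the lists they move most. Fold changes are differences of log2(FPKM + 1), WB436B minus vehicle, and understate the change of weak genes. NR1D1, NR1D2, CD274, GJB2, RNASE7, CTGF, HSPA1A, HSPA1B, HSPB1, TNFRSF10A and TNFRSF10B are named because of their values, outside the rule that chose the other names. A gene is said to have risen or fallen only if limma gave a Benjamini-Hochberg adjusted p below 0.05 over all tested genes.

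STAT3 is a latent transcription factor that cytokine receptors of the IL-6 family activate through JAK kinases, after which STAT dimers enter the nucleus and bind DNA. In pancreatic ductal cells this pathway is known for driving acute-phase, antimicrobial and survival genes, and SOCS3 closes the loop by blocking the kinases. BxPC3 carries no functional SMAD4, the shared partner of the SMAD proteins that carry TGF-beta and BMP signals.

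The identity of the cells was checked before the comparison. SMAD4, CDKN2A and CDKN2B, which are deleted in the line, were listed at 0 in all 6 libraries. The summed level of 10 epithelial ductal genes lay between 2125 and 2203 FPKM under vehicle and between 2500.0 and 2682 FPKM under the compound. That sum hides opposite changes, since 5 of the 10 rose, KRT17 and KRT7 among them, and 3 fell. The 3 were KRT19, MUC1 and ELF3, each lower by at least 2-fold. Fibroblast markers summed to 2.99 to 3.11 against 1.17 to 1.39 FPKM, endothelial markers to 0.874 to 1.17 against 0.378 to 0.631 FPKM, and leukocyte markers to 6.11 to 8.82 against 3.22 to 3.68 FPKM. The leukocyte sum was mostly CD68, a lysosomal protein that other cells also make, and the defining marker PTPRC stayed at or below 0.0193 FPKM. What part these markers have in the results was not tested. Estimated depth lay between 14800000 and 47200000 fragments, the deepest being vehicle 1. Libraries correlated at 0.981 to 0.988 within a group and at 0.912 to 0.919 between the groups (Pearson, log2(FPKM + 1), across genes).

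The compound moved a large part of the transcriptome. At the threshold used, 3133 genes were higher (26% of those tested) and 4930 lower (40.9%), 66.9% in either direction. A change of at least 2-fold on the log scale was reached by 324 genes upward (2.69%) and 1002 downward (8.31%). In 70.8% of tested genes all 3 libraries of one group lay above all 3 of the other. Among the 11000 genes that did not pass through one group alone, 3019 were higher (27.4%) and 4003 lower (36.4%), with a median of -0.06. The counts of list members below are to be read against these shares, since a list with 26% of its members higher and 40.9% lower does what all genes do. The shares also differed by level. Of the same 11000 genes, 16.2% rose and 42.9% fell at 1 to 5 FPKM, and 46.7% rose and 24.8% fell at 20 to 100 FPKM. The lists were not matched for level, and what part level has in their counts was not tested. The median change of all tested genes was -0.11, and the split between upward and downward calls rested on the scaling. Upward calls were 38.9% of all calls on the deposited values, 49.9% after median-of-ratios scaling (4045 higher and 4063 lower) and 52.4% after quantile normalization (3968 and 3608), which put the median at 0.003 and 0.029.

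**Figure D1:**
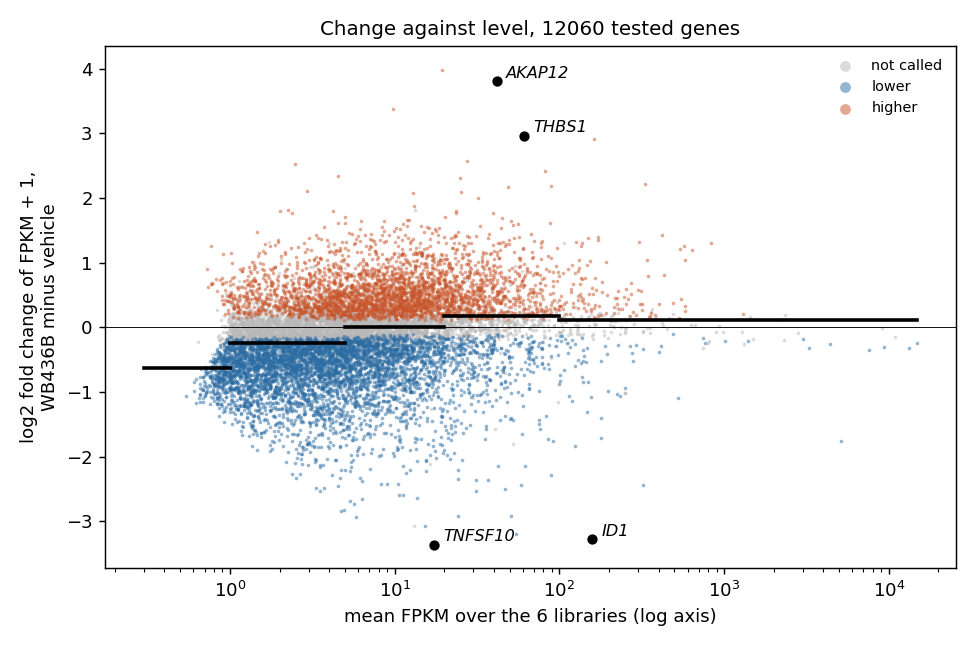
The log2 fold change of each of the 12060 tested genes is plotted against its mean FPKM over the 6 libraries on a log axis, coloured by call, with black lines for the median of each range of levels. Medians run from -0.63 under 1 FPKM, where all but 46 of 407 genes reached 1 FPKM in one group alone, to 0.17 between 20 and 100 FPKM, and AKAP12, THBS1, TNFSF10 and ID1 lie far from the cloud.

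The direction of the calls changed with the level of the genes. These counts leave out the genes that reached 1 FPKM in one group alone. Among the 4780 remaining genes that averaged 1 to 5 FPKM, 772 rose and 2052 fell, with a median of -0.19. Among the 1529 genes at 20 to 100 FPKM, 714 rose and 379 fell, with a median of 0.17. Above 100 FPKM 109 of 282 rose and 62 fell. Long intergenic non-coding RNA genes fell in 75 of 138 and rose in 10, with a median of -0.42, and antisense genes fell in 107 of 168 and rose in 12. The strandedness of the libraries is not known, so reads of a gene and of its antisense partner cannot be told apart.

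AKAP12, a scaffold that anchors protein kinase A and protein kinase C near the membrane, measured 4.71, 5.22 and 4.31 FPKM in vehicle-treated cells and 75.8, 80.5 and 80.4 FPKM under WB436B. Its mean rose 16.6-fold, a log2 fold change of 3.80 (SE 0.0619, limma adjusted p = 6.0e-09). THBS1, the matricellular glycoprotein thrombospondin-1, held 13.8, 13 and 12.6 FPKM under vehicle and 106, 107 and 113 FPKM under the compound, a log2 fold change of 2.96 (SE 0.0456). No library of one group came near the range of the other for either gene. TNFSF10, which encodes the death ligand TRAIL, stood at 31.3, 31.8 and 33.9 FPKM under vehicle and at 2.1, 2.38 and 2.26 FPKM under WB436B, which is 6.96% of the vehicle mean (log2 fold change -3.36, SE 0.0588, limma adjusted p = 6.9e-09). ID1, which binds E proteins and keeps them from DNA, stood at 289, 289.6 and 287 FPKM and at 30.5, 27.4 and 28.7 FPKM (-3.28, SE 0.0506). The vehicle values of ID1 differed among themselves by under 3 FPKM, and the treated cells kept 10.02% of them.

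STAT3 itself was measured at 16.4, 15.8 and 15.1 FPKM under vehicle and 10.5, 10.9 and 10.8 FPKM under WB436B, so all treated libraries lay below all vehicle libraries, at 68% of the mean (log2 fold change -0.52, limma adjusted p = 6.2e-05). SOCS3, its feedback target, held 5.99, 5.82 and 4.88 FPKM and then 4.0, 3.97 and 4.35 FPKM (log2 fold change -0.36). The groups did not overlap, but quantile normalization ended that call (log2 fold change -0.19, limma adjusted p = 0.079). MYC, a driver of cell growth, was uneven under vehicle at 2.93, 4.3 and 13.9 FPKM and even under the compound at 14.1, 13.1 and 14.8 FPKM. Vehicle 3 reached the treated range, and the change of 1.15 was not called (limma adjusted p = 0.081). Without vehicle 3 the log2 fold change was 1.71 and called (limma adjusted p = 0.00728), and leaving out the third siRNA library, which bears only on the spread, gave a limma adjusted p of 0.0478.

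**Figure D2:**
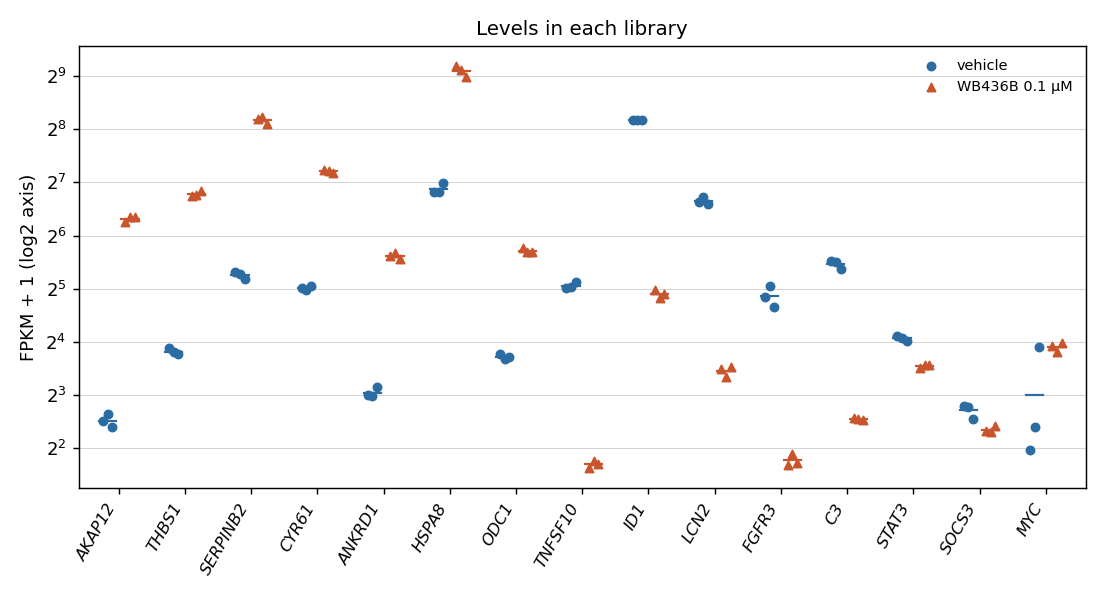
FPKM + 1 on a log2 axis is plotted for 15 genes in each vehicle library (circles) and each WB436B library (triangles), with a line at the group mean. The groups are far apart for AKAP12, THBS1, TNFSF10 and ID1, close for STAT3 and SOCS3, and overlapping for MYC, where vehicle 3 stands with the treated libraries.

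Promoter sequences were taken from RefSeq (GRCh38.p14), which held a promoter for 8360 of the 12060 tested genes. The window scanned ran from 250 bases before the start to 50 after it, for the first start listed of each gene, and motifs were read on both strands. The 250 bases before the start are printed for genes that carry the results or one of the motifs described next, 5′ to 3′ on the gene's strand, with motifs in capitals.
AKAP12 (chr6:151239717-151239966, plus strand, first of 3 starts listed, capitals mark the E-box and an SRF CArG box): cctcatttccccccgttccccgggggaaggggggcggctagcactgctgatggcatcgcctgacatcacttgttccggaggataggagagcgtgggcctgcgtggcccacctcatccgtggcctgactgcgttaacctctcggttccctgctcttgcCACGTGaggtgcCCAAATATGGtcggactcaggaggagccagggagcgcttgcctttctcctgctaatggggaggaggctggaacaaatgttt
THBS1 (chr15:39580829-39581078, plus strand, capitals mark a STAT site, a CCAAT box and a TEAD site): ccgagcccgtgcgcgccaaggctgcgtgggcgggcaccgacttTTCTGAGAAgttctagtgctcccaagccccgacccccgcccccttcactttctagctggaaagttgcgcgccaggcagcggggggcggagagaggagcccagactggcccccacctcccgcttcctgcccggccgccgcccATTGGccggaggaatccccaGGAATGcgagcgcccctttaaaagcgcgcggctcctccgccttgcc
FLNA (chrX:154374635-154374884, minus strand, capitals mark a CArG box, which overlaps a CCAAT box): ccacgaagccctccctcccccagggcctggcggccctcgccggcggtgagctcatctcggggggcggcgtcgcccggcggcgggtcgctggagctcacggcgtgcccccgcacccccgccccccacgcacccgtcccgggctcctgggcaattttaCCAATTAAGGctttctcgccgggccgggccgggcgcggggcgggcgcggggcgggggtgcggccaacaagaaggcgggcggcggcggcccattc
SERPINB2 (chr18:63887455-63887704, plus strand, capitals mark an AP-1 site and a TATA box): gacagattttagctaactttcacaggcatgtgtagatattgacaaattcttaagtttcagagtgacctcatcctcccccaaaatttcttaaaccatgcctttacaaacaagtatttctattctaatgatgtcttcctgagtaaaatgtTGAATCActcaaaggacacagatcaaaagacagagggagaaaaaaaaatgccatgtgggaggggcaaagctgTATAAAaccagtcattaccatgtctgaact
HSPA8 (chr11:123062137-123062386, minus strand, capitals mark heat-shock elements): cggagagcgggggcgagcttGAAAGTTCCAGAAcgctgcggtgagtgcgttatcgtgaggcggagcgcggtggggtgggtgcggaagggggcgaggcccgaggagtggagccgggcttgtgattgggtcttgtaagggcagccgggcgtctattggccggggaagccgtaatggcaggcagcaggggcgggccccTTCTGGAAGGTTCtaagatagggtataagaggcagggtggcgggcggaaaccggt
CHORDC1 (chr11:90223050-90223299, minus strand, capitals mark overlapping heat-shock elements): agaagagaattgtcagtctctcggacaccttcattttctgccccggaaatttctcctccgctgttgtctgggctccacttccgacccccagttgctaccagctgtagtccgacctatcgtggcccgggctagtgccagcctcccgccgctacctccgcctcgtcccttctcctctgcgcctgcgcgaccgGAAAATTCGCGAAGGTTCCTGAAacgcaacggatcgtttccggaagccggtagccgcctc
SRM (chr1:11060019-11060268, minus strand, capitals mark an E-box): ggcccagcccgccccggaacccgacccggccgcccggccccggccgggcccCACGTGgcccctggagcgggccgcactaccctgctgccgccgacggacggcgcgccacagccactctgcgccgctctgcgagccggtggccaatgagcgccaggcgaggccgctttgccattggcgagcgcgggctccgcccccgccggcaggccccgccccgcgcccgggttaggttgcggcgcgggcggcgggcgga
HSPD1 (chr2:197500275-197500524, minus strand, first of 2 starts listed, capitals mark an E-box): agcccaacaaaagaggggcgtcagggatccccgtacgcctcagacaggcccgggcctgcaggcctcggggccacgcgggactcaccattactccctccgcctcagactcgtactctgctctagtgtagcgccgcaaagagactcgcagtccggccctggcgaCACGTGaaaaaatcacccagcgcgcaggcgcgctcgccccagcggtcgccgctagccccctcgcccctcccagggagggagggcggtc
TNFSF10 (chr3:172523431-172523680, minus strand, capitals mark a TATA box): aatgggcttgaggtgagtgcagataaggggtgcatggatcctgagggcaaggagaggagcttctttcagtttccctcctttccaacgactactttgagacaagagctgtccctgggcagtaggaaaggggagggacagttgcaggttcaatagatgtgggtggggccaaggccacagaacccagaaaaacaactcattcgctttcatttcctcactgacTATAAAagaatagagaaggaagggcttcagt
ID1 (chr20:31605039-31605288, plus strand, capitals mark a CCAAT box and a TATA box): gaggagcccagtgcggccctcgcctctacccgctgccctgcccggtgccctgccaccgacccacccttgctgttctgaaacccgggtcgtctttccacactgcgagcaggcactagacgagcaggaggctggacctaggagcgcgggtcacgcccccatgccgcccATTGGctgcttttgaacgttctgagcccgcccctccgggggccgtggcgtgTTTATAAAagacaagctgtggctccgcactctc
AKAP12 carries its E-box 93 to 88 and its CArG box 81 to 72 bases before the start, so that both lie within a short stretch. The STAT site of THBS1 lies 207 to 199 bases before the start. None was found in the 250 bases before the start of TNFSF10 or ID1, which both have a TATA box 31 to 26 bases before it. HSPA8 holds a heat-shock element 230 to 218 and another 55 to 43 bases before the start, and CHORDC1 holds 3 overlapping ones between 60 and 38.

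The E-box CACGTG, which MYC-MAX and related dimers bind, was found in 20.2% of the 242 promoters of genes that rose at least 2-fold, in 7.37% of the 556 of genes that fell as much and in 10.4% of all 8360. Among 64 promoters of the nucleolar list described later it was found in 31.2%. Over all called genes the shares were 12.4% (2362 higher) and 9.19% (3222 lower). The heat-shock element, the binding site of HSF1, was rare at 0.275% of all promoters, 2.07% of those that rose at least 2-fold and 0% of those that fell at least 2-fold. Over all called genes it was in 0.55% of those that rose and 0.155% of those that fell. It was in 4 of 46 promoters of the heat-shock and chaperonin lists. The CArG box, which binds the serum response factor SRF, was in 2.89% of promoters of genes that rose at least 2-fold, 1.62% of those that fell at least 2-fold and 1.05% of all, and over all called genes in 1.35% and 0.869%. For the motifs that follow, the shares are of genes that rose at least 2-fold, of genes that fell at least 2-fold and of all promoters. The STAT site TTCNNNGAA was in 6.2%, 6.12% and 6.22%. The TATA box TATAAA was in 8.26%, 11% and 5.36%. For the AP-1 site TGANTCA the shares were 7.02%, 6.29% and 4.56%, for the TEAD site CATTCC 9.92%, 9.71% and 10.7%, for the BMP SMAD element GGCGCC 28.5%, 27% and 31.4%, and for the CCAAT box 40.9%, 34.7% and 37.1%. These shares are descriptions of letters in a window, with no test, and the sets include genes that reached 1 FPKM in one group alone.

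**Figure D3:**
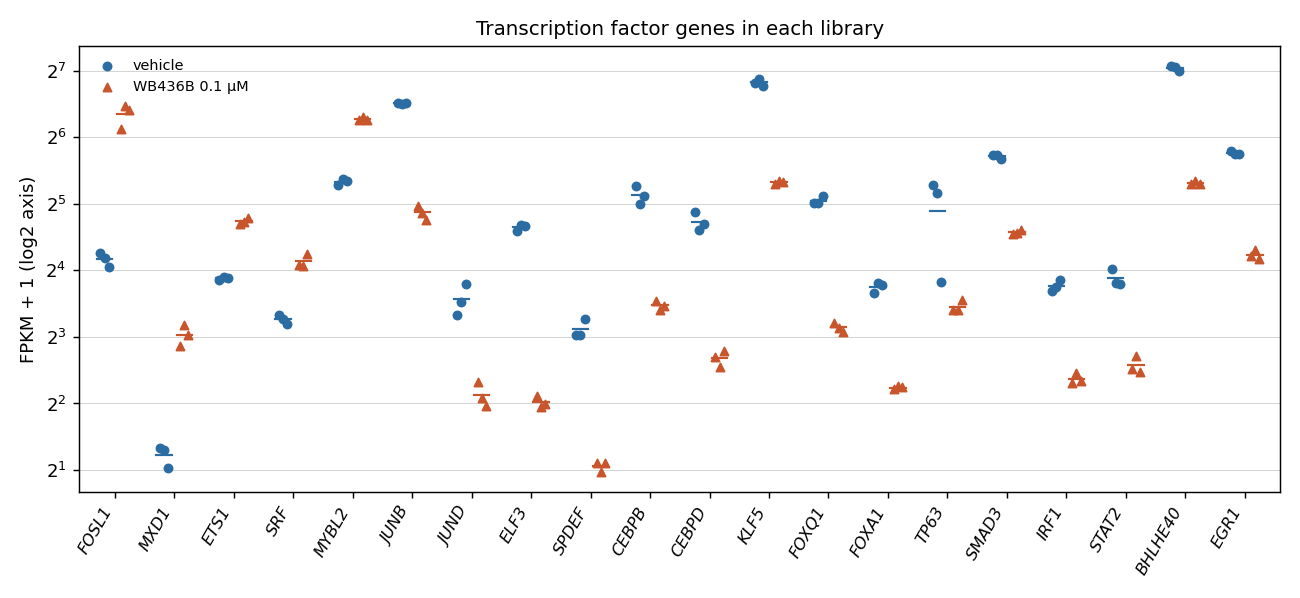
FPKM + 1 on a log2 axis is plotted for 20 transcription factor genes in each vehicle library (circles) and each WB436B library (triangles), with a line at the group mean. FOSL1, MXD1, ETS1, SRF and MYBL2 rose and the other 15 fell, with vehicle 3 of TP63 close to the treated libraries.

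Transcription factors fell more often than they rose. Of 239 tested members of 14 factor lists, 40 rose and 139 fell (median -0.35), against 26% and 40.9% of all genes. Without members that reached 1 FPKM in one group alone, 37 of 217 rose and 121 fell. After ID1, ELF3 and SPDEF carried the largest decreases. ELF3, an ETS factor of secretory epithelium, stood at 23.2, 24.6 and 24.5 FPKM under vehicle and 3.33, 2.84 and 2.96 FPKM after treatment (log2 fold change -2.64). SPDEF, its relative in goblet cells, fell from 7.67 ± 0.847 to 1.09 ± 0.105 FPKM (means ± SD, n = 3), and EHF from 68.9 ± 6.39 to 38.6 ± 2.47 FPKM. In the ETS list 9 of 18 fell and 4 rose, among them ETS1, a factor of invasive cells, from 13.8 ± 0.223 to 25.7 ± 0.842 FPKM. Groups did not overlap for any of these genes, which was a condition for naming them and held for 70.8% of all tested genes.

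The interferon regulatory and STAT factors were all below vehicle or not called. Of 12 tested members 11 fell and none rose (median -0.57), though median-of-ratios and quantile scaling each put 1 member higher. IRF1, which induces antigen presentation and antiviral genes, held 12, 12.5 and 13.4 FPKM under vehicle and 3.96, 4.48 and 4.06 FPKM under the compound. STAT2, a partner of IRF9 in the interferon complex, held 15.2, 13 and 12.9 and 4.75, 5.54 and 4.57 FPKM. IRF9 fell by 1.32 on the log2 scale, with 48.4% of its exon bases shared with another gene, and IRF2 fell by 1.05. IRF5 stood at 2.79 ± 0.128 and 0.712 ± 0.191 FPKM. STAT5B was the member not called, at 5.77 and 5.93 FPKM.

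SOX and FOX factors fell in 18 of 24 and rose in 3 (median -0.68, or -0.53 over the 21 that did not pass through one group alone). FOXQ1 fell from 32 ± 1.39 to 7.83 ± 0.423 FPKM, and FOXA1, which opens chromatin in endodermal epithelium, from 12.5 ± 0.678 to 3.72 ± 0.0587 FPKM. SOX4 fell by 1.25 on the log2 scale, and SOX2 stood at 3.46 ± 0.38 and 0.709 ± 0.196 FPKM. SOX9, a ductal progenitor factor, was not called, at 3.91 and 3.73 FPKM. Homeobox factors fell in 19 of 26 and rose in 4, but quantile normalization left 9 lower and 5 higher. PITX1 was the largest decrease, from 37.8 ± 1.25 to 12.8 ± 0.356 FPKM, and MSX1, a BMP-responsive repressor, rose from 1.25 ± 0.182 to 3.75 ± 0.156 FPKM. TP63, the master factor of the basal squamous programme, averaged 28.6 FPKM under vehicle and 9.97 FPKM under WB436B. Its libraries stood at 37.9, 34.7 and 13.2 FPKM and 9.55, 9.57 and 10.8 FPKM, so vehicle 3 lay much closer to the treated cells than vehicle 1 and 2 did. GRHL2, which holds epithelial junction genes open, fell from 19.4 ± 1.06 to 8.99 ± 0.19 FPKM.

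The bZIP factors split by member. FOSL1, the FRA-1 subunit of AP-1, rose from 18.1, 17.2 and 15.5 to 69, 87.3 and 84.2 FPKM, a 4.73-fold higher mean, and JUN rose from 19.9 ± 0.845 to 35 ± 0.429 FPKM. JUNB, a STAT3-responsive AP-1 subunit, fell from 90.8, 89.1 and 90.6 to 30.4, 28.1 and 26.1 FPKM, and JUND from 10.8 ± 1.93 to 3.39 ± 0.574 FPKM. FOSL2 and FOS fell (log2 fold changes -0.92 and -0.72). In the AP-1 list 3 of 12 rose (25%) and 5 fell (41.7%) on the deposited values, near the 26% and 40.9% of all tested genes. Those counts turned to 5 higher and 4 lower under median-of-ratios and under quantile scaling. CEBP and related bZIP factors fell in 18 of 25 and rose in 3 (median -0.47). CEBPB and CEBPD, which drive acute-phase genes with STAT3, fell from 34.1 ± 3.43 to 10.1 ± 0.553 and from 25.5 ± 2.54 to 5.43 ± 0.516 FPKM. CEBPA fell by 1.30, with 43.4% of its exon bases shared.

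KLF5, a zinc finger factor of proliferating epithelium, fell from 112 ± 4.15 to 39 ± 0.643 FPKM, and SP1, KLF3 and KLF13 fell (log2 fold changes -1.81, -1.61 and -1.21). KLF4 and KLF6 were not called, at 5.89 and 7.44 FPKM and at 3.7 and 5.87 FPKM. Without vehicle 2 the change of KLF6 was 0.90 and called (limma adjusted p = 0.0329). The early response gene EGR1 fell from 53.4 ± 0.986 to 17.9 ± 0.901 FPKM, and BCL6, a repressor that STAT factors regulate, from 5.03 ± 0.196 to 1.1 ± 0.0736 FPKM. Of the 12 tested early response zinc finger genes 9 fell and none rose, though 1 was higher under median-of-ratios scaling. BHLHE40, a circadian and hypoxia-responsive repressor, fell from 131 ± 3.21 to 38.7 ± 0.633 FPKM, HES1, the main Notch target, from 28.4 ± 1.96 to 10.3 ± 0.295 FPKM, and EPAS1, the HIF-2 alpha subunit, from 29.98 ± 2.01 to 11.7 ± 0.597 FPKM. MXD1, which competes with MYC for MAX, rose from 1.53, 1.47 and 1.04 to 6.31, 8.03 and 7.12 FPKM. MXD4, another antagonist of that network, stood at 2.75 ± 0.199 and 0.662 ± 0.0712 FPKM.

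The retinoid X receptor RXRA fell from 13.3 ± 1.82 to 5.03 ± 0.202 FPKM and the retinoic acid receptor RARG from 21 ± 1.1 to 9.29 ± 0.727 FPKM. Nuclear receptors fell in 12 of 20 and rose in 3, with NR1D1 and NR1D2, the REV-ERB repressors of the clock, rising by 0.62 and 0.55. The cell cycle factors went the other way, with 7 of 14 members of the E2F, DP, RB and MYB list higher and 4 lower. MYBL2, which acts in S and G2 phase, rose from 39.4 ± 1.17 to 76.6 ± 1.57 FPKM, whereas RBL2, a pocket protein of resting cells, fell from 19.6 ± 0.92 to 8.99 ± 0.725 FPKM. SRF rose from 9.02, 8.67 and 8.15 to 15.9, 15.8 and 18.1 FPKM and TEAD4, the DNA-binding partner of YAP, from 13.6 ± 0.273 to 23.6 ± 0.435 FPKM, while YAP1 fell by 0.35 on the log2 scale and WWTR1 was not called (9.61 and 10.3 FPKM). In that list of 15, 4 rose and 3 fell on the deposited values (5 fell without WB436B 3), and 7 rose and 3 fell under median-of-ratios and 6 and 3 under quantile scaling.

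**Figure D4:**
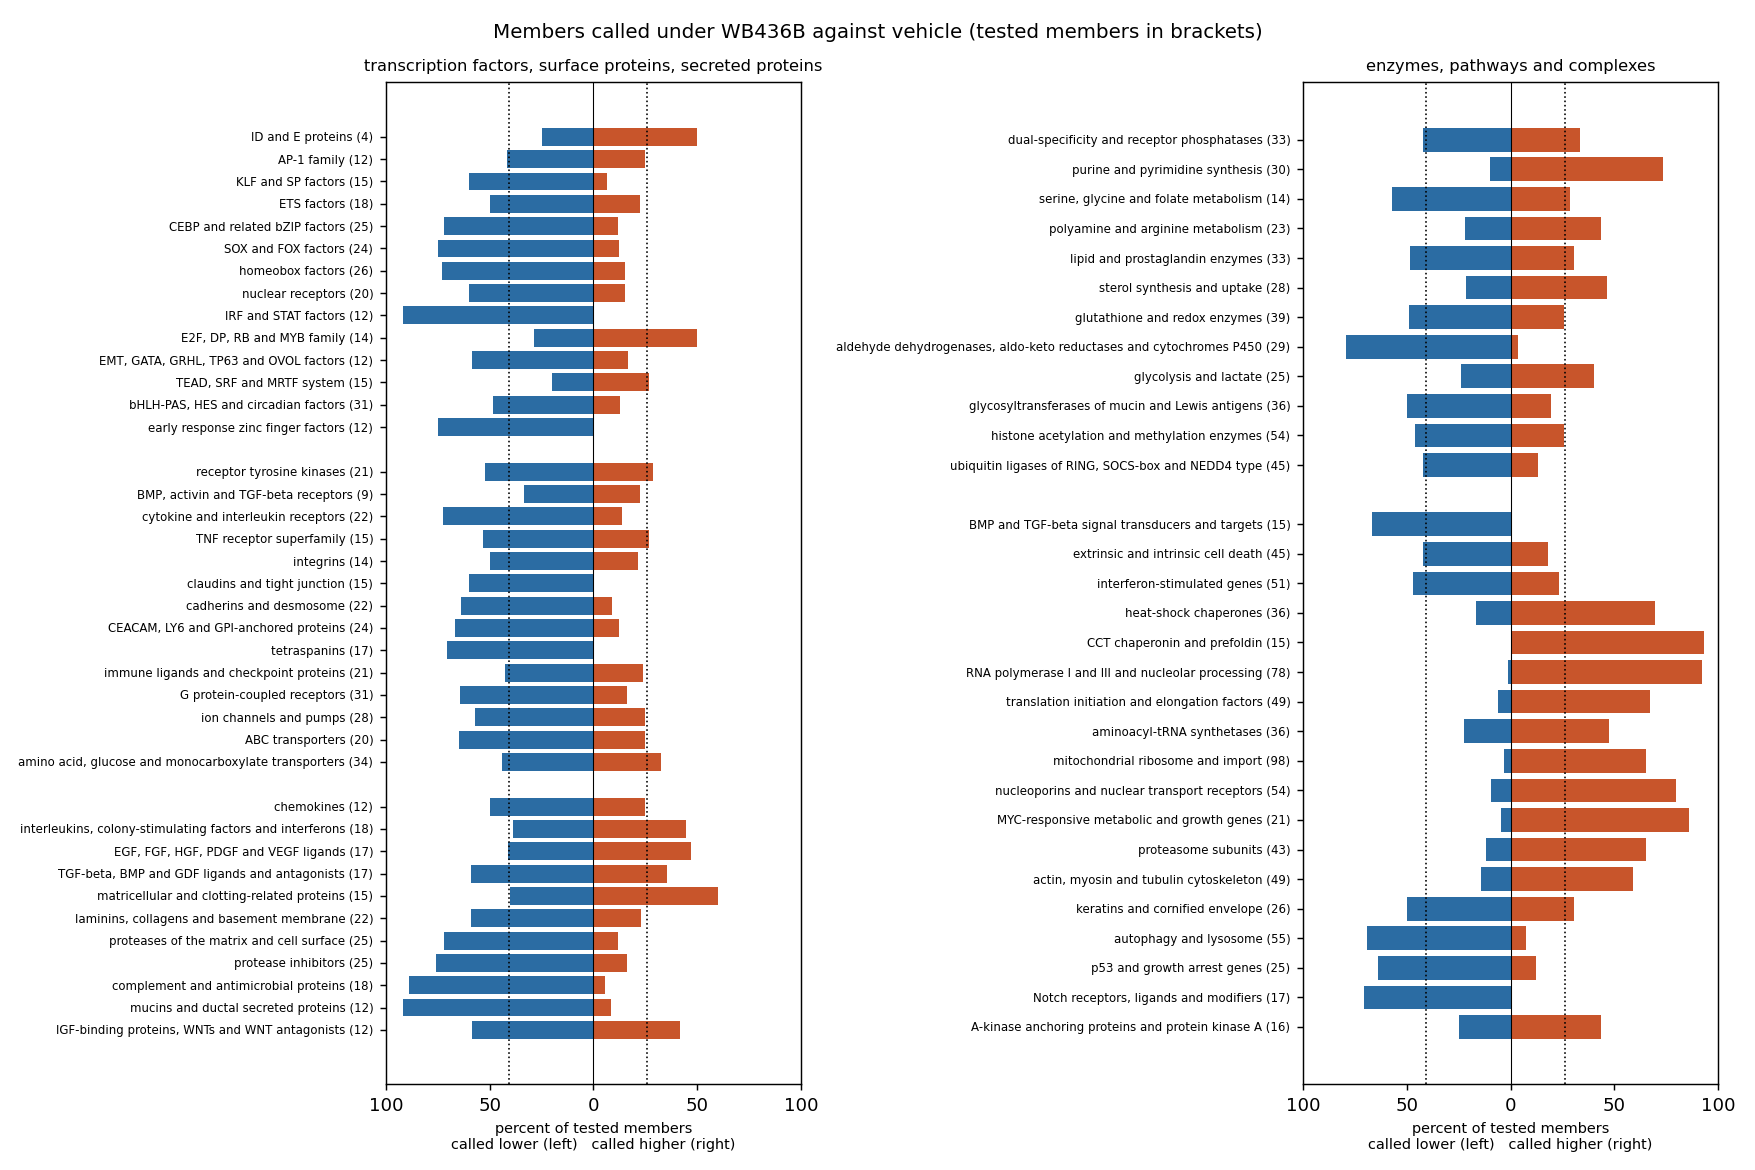
Bars give, for each of 69 gene lists, the percent of tested members called higher (to the right) and lower (to the left) under WB436B, with dotted lines at 26% and 40.9%, the shares among all tested genes. Nucleolar, chaperonin and nucleoporin lists reach far to the right, and the lists of complement, mucins, IRF and STAT factors far to the left.

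Surface proteins were lower in most families. Of 293 tested members of 14 lists, 56 rose and 169 fell (median -0.40), and 52 of 265 rose and 145 fell without members that reached 1 FPKM in one group alone (median -0.29). Among receptor tyrosine kinases, FGFR3 stood at 27.8, 32 and 24.3 FPKM under vehicle and 2.23, 2.72 and 2.32 FPKM under WB436B, so treated cells kept 8.65% of it. ERBB3, the kinase-poor partner of EGFR and ERBB2, fell from 11.5 ± 0.261 to 3.84 ± 0.358 FPKM, and the ephrin receptor EPHB3 from 8.14 ± 0.668 to 2.37 ± 0.0873 FPKM. AXL, the receptor of GAS6, rose from 20.8 ± 1.2 to 43.1 ± 1.54 FPKM. EGFR itself was not called, at 48.1 and 49.4 FPKM.

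Cytokine receptors fell in 16 of 22 and rose in 3. IFNGR1, the ligand-binding chain of the interferon-gamma receptor, fell from 44.7 ± 3.82 to 19.7 ± 0.231 FPKM, and the IL-20 receptor chain IL20RB fell by 1.69 on the log2 scale. IL1RL1, the IL-33 receptor, rose from 10.3 ± 0.931 to 23.3 ± 1.51 FPKM, and its ligand IL33 fell from 9.61 ± 0.418 to 1.57 ± 0.195 FPKM. The TNF receptor family included TNFRSF14, the HVEM receptor, which fell from 9.42 ± 0.278 to 1.46 ± 0.169 FPKM, and TNFRSF21, or DR6, which fell from 129.8 ± 2.6 to 72.3 ± 1.98 FPKM. NGFR stood at 6.33 ± 0.523 and 0.309 ± 0.0155 FPKM, and TNFRSF8, the CD30 receptor, at 0.345 ± 0.0103 and 3.66 ± 0.262 FPKM. TGFBR2, which binds TGF-beta and starts its signal, rose from 10.1 ± 0.861 to 20.7 ± 0.953 FPKM.

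Most called junction and adhesion genes fell. Claudins and tight junction genes fell in 9 of 15 and none rose on the deposited values, with 2 higher under either other scaling and 1 without vehicle 2. Without members that reached 1 FPKM in one group alone, 6 of 12 fell. CLDN1, the barrier-forming claudin, fell from 118, 119.8 and 124 to 45.3, 46.8 and 46 FPKM, and the scaffold TJP3 stood at 4.68 ± 0.196 and 0.485 ± 0.0488 FPKM. CLDN7 and CLDN4 were not called (25.4 and 22.5 FPKM, 8.57 and 12.3 FPKM). Of the cadherin and desmosome genes 14 of 22 fell, among them FAT2, a giant cadherin of squamous cells, from 29.7 ± 3.6 to 7.74 ± 0.578 FPKM and DSG3 from 31.2 ± 1.52 to 9.75 ± 0.409 FPKM. CDH1, E-cadherin, was not called at 59.9 and 63.9 FPKM. ITGB6, the epithelial partner of ITGAV in activating latent TGF-beta, fell from 12.2 ± 0.252 to 4.61 ± 0.189 FPKM. GJA1, connexin 43, rose from 5.2, 5.02 and 4.95 to 20.1, 21 and 22.5 FPKM. The other gap junction gene named, GJB2, connexin 26, fell from 47.2, 49.7 and 50.9 to 19.5, 19.7 and 18.5 FPKM.

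Glycosylphosphatidylinositol-anchored and related antigens fell in 16 of 24 and rose in 3 (median -0.78), and 12 of 20 fell, with a median of -0.29, without members that reached 1 FPKM in one group alone. CEACAM5, the carcinoembryonic antigen, stood at 98.5, 103 and 101 FPKM and then 21.2, 21.9 and 23.1 FPKM, and LY6D at 58.5, 54.5 and 44.8 and 9.23, 10.01 and 8.78 FPKM. PSCA stood at 6.68 ± 1.46 and 0.314 ± 0.133 FPKM. PLAUR, the urokinase receptor, rose from 6.74 ± 0.618 to 19 ± 0.827 FPKM. Tetraspanins fell in 12 of 17 and none rose on the deposited values (2 higher under quantile normalization). TSPAN1 and CD9 fell (log2 fold changes -1.03 and -0.93), although CD63 and CD151 were not called (106 and 103 FPKM, 28.8 and 29.1 FPKM). Of immune ligands, NECTIN4 fell from 8.13 ± 0.389 to 2.06 ± 0.0151 FPKM, and CD274, PD-L1, was not called (1.61 and 3.45 FPKM). CD86 stood at 2.93 ± 0.208 and 0.836 ± 0.0438 FPKM, and PDCD1LG2 at 0.298 ± 0.00592 and 2.63 ± 0.261 FPKM.

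Transport proteins held some of the largest losses by level. AQP3, a water and glycerol channel, stood at 495, 477 and 657 FPKM under vehicle and 99.9, 93.3 and 101 FPKM under the compound, a log2 fold change of -2.44. The epithelial sodium channel subunit SCNN1A fell from 32.7 ± 1.15 to 9.27 ± 0.434 FPKM and the sodium pump subunit ATP1B1 from 64.3 ± 1.12 to 23.1 ± 0.839 FPKM. In the channel list 16 of 28 fell and 7 rose. The efflux transporters ABCC3 and ABCA1 fell (log2 fold changes -1.67 and -1.58), and ABCC4 rose by 1.23. ABCE1, which splits ribosomes rather than moving substrates, rose from 16.4 ± 0.798 to 41.7 ± 1.62 FPKM. SLC6A14, a broad amino acid importer, fell from 7.87 ± 0.071 to 1.45 ± 0.135 FPKM, and SLC29A1, which carries nucleosides, rose from 2.28 ± 0.165 to 6.55 ± 0.466 FPKM.

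Secreted proteins changed in 89.6% of 193 tested members of 11 lists, against 66.9% of all tested genes. The lists were chosen with earlier results of these data known, so that share does not measure secreted proteins in general. Of the 193, 53 rose and 120 fell (median -0.54). Without members that reached 1 FPKM in one group alone, 42 of 157 rose and 95 fell (median -0.41). The complement and antimicrobial list stood lowest of the 11, with 16 of 18 lower, 1 higher and a median of -1.65. Of its 9 members that did not pass through one group alone, 8 were lower and none higher (median -1.69). LCN2, the siderophore-binding lipocalin, held 98, 105 and 95.2 FPKM under vehicle and 10.2, 9.14 and 10.6 FPKM under WB436B. C3 held 45.1, 44.3 and 40.7 and 4.97, 4.85 and 4.81 FPKM, and PIGR, the receptor that carries IgA across epithelium, 8.74, 9.28 and 8.96 and 0.435, 0.391 and 0.374 FPKM. S100A9 fell by 2.44 on the log2 scale, and C1R and ceruloplasmin (CP) stood at 10.04 ± 2.39 and 0.699 ± 0.11 FPKM and at 7.03 ± 0.651 and 0.43 ± 0.0297 FPKM. RNASE7, the member called higher, stood at 0.692 ± 0.108 and 3.08 ± 0.387 FPKM. All 12 tested mucin and ductal secreted genes were called, 11 of them lower, and the 6 that did not pass through one group alone all fell. AGR2, a disulphide isomerase of mucus-making cells, fell from 50.8, 51.6 and 59.9 to 9.02, 8.94 and 7.57 FPKM, TFF1 from 12 ± 2.84 to 2.49 ± 0.292 FPKM and MUC1 from 8.18 ± 0.0797 to 1.8 ± 0.24 FPKM. MUC2, an intestinal mucin, stood at 2.89 and 0.203 FPKM.

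Protease inhibitors fell in 19 of 25 and rose in 4 (median -0.92), and they reached far in both directions. PI3, elafin, stood at 90.6, 92.6 and 89.6 and 11.9, 10.9 and 10.7 FPKM, and WFDC2 fell from 19.1 ± 0.30 to 3.54 ± 0.436 FPKM. SERPINB3 and SERPINB4, near-identical neighbours whose fragments can be exchanged, fell (log2 fold changes -2.29 and -2.22). SERPINB2, the inhibitor PAI-2 of plasminogen activators, rose from 38.8, 37.7 and 35.5 to 291, 297 and 272 FPKM, a mean 7.69-fold higher. PLAT, the tissue activator that PAI-2 and PAI-1 restrain, fell from 27.5, 28.9 and 21.6 to 4.36, 4.57 and 5.35 FPKM. Matrix and surface proteases fell in 18 of 25 and rose in 3. The kallikreins KLK10 and KLK11 fell (log2 fold changes -1.72 and -2.21), as did the metalloproteinases MMP28 and MMP13 (-2.02 and -1.48).

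Matricellular and clotting-related genes rose in 9 of 15 and fell in 6 (median 0.67), or in 6 and 5 of 11 without members that reached 1 FPKM in one group alone. Beside THBS1, EDN1, the vasoconstrictor endothelin, held 0.884, 0.788 and 0.812 FPKM under vehicle and 7.35, 8.69 and 8.72 FPKM under the compound, and F3, tissue factor, 461, 483 and 507 and 1192, 1203 and 1183 FPKM. TFPI2, a protease inhibitor of the matrix, rose by 1.16 on the log2 scale, and THBS3 stood at 2.91 ± 0.237 and 0.739 ± 0.0902 FPKM. CYR61, another matricellular member, held 31.2, 30.7 and 32.4 FPKM and then 149.9, 147 and 144 FPKM, and its relative CTGF stood at 0.554 ± 0.040 and 2.45 ± 0.24 FPKM. IGFBP5, a carrier of insulin-like growth factors, stood at 0.853, 0.885 and 0.897 FPKM under vehicle and 17.7, 19.2 and 18.6 FPKM under the compound. The WNT antagonist DKK1 rose from 26.2 ± 1.26 to 57.8 ± 0.277 FPKM, whereas WNT10A fell by 1.91 on the log2 scale. WNT4 stood at 2.95 ± 0.263 and 0.284 ± 0.0808 FPKM.

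Cytokines and growth factors went both ways. Of 18 interleukin, colony-stimulating factor and interferon genes 8 rose and 7 fell. CSF2, or GM-CSF, was at 0.0842, 0 and 0 FPKM under vehicle, close to 0, and at 5.19, 4.6 and 5.02 FPKM under WB436B. IL37 stood at 0.615 ± 0.094 and 2.17 ± 0.357 FPKM. IL36G rose by 1.01 on the log2 scale, and LIF, an IL-6 family cytokine that activates STAT3, fell from 14.7 ± 0.534 to 6.42 ± 0.461 FPKM. IL18 was not called (24.9 and 27.3 FPKM). The chemokine CXCL14 stood at 8.38 ± 0.36 and 0.731 ± 0.301 FPKM. CXCL17 fell from 4.98 ± 0.52 to 0.791 ± 0.251 FPKM, and CXCL11, an interferon-induced chemokine, rose from 5.81 ± 0.21 to 14.1 ± 1.12 FPKM. Among EGF-type ligands AREG and TGFA rose from 22.8 ± 1.34 to 45 ± 1.15 and from 14.5 ± 0.762 to 26.9 ± 0.488 FPKM, and VEGFA fell from 14.6 ± 0.32 to 6.21 ± 1.48 FPKM. In the TGF-beta group 6 of 17 rose and 10 fell. FSTL3 and INHBA, an antagonist and a subunit of activin, rose by 1.70 and 1.16 on the log2 scale, and GDF15, a stress cytokine, fell from 17 ± 1.64 to 4.38 ± 0.402 FPKM.

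Enzymes as a class stood near the background, with 118 of 389 tested members higher and 162 lower (median -0.10), or 115 and 140 of 363 without members that reached 1 FPKM in one group alone, but the families went apart. Purine and pyrimidine synthesis rose in 22 of 30 and fell in 3 (median 0.58). CTPS1, which makes CTP, rose from 7.37, 7.65 and 7.46 to 21.4, 22.9 and 23.5 FPKM, and PPAT and PRPS1, which open purine synthesis, from 4.25 ± 0.115 to 10.8 ± 0.0441 and from 12.5 ± 0.786 to 28.4 ± 1.51 FPKM. CAD rose by 1.06 on the log2 scale. In polyamine metabolism ODC1, the rate-limiting decarboxylase, held 12.6, 11.9 and 12.2 FPKM under vehicle and 53.4, 50.9 and 50.6 FPKM under the compound, and the synthases SRM and SMS rose from 9.45 ± 0.829 to 27 ± 0.601 and from 25.3 ± 2.39 to 57.7 ± 1.53 FPKM. SAT1, which breaks polyamines down, fell from 84.9 ± 4.18 to 35.9 ± 2.23 FPKM. ASS1, an enzyme on the path from citrulline to arginine, fell from 62.3, 61.4 and 64.8 to 11.4, 10.8 and 12 FPKM.

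Aldehyde dehydrogenases, aldo-keto reductases and cytochromes P450 fell in 23 of 29 and rose in 1 (median -0.66), or 16 and 1 of 22 without members that reached 1 FPKM in one group alone. AKR1C1, AKR1C2 and AKR1C3, close copies that reduce steroids and whose fragments can be exchanged, fell (log2 fold changes -1.73, -1.73 and -1.95). RDH10, which starts retinoic acid synthesis, fell from 17.9 ± 0.541 to 5.76 ± 0.235 FPKM, and ALDH1A1, a marker of stem-like cells, stood at 2.51 ± 0.192 and 0.228 ± 0.142 FPKM. In redox metabolism the hydrogen peroxide makers DUOX2 and DUOX1 stood at 11.2 ± 3.49 and 0.551 ± 0.0593 FPKM and at 4.14 ± 0.219 and 0.637 ± 0.0617 FPKM, with the maturation factor DUOXA2 at 9.42 ± 0.391 and 0.47 ± 0.0908 FPKM. GPX2 fell from 54 ± 2.68 to 17.4 ± 0.515 FPKM. PSAT1 and PHGDH of serine synthesis fell (log2 fold changes -1.94 and -1.16).

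Lipid enzymes gave no common direction, with 10 of 33 higher and 16 lower, and sterol genes rose in 13 of 28 and fell in 6. SREBF1, the factor that drives fatty acid synthesis, fell from 26.8 ± 2.4 to 7.32 ± 0.411 FPKM. Glycolytic enzymes rose in 10 of 25 and fell in 6 on the deposited values, and in 8 each under quantile normalization, with GAPDH not called at 2045 and 2205 FPKM. Among chromatin enzymes, 14 of 54 rose (25.9%) and 25 fell (46.3%), near the 26% and 40.9% of all tested genes. The 3 members that rose at least 2-fold were arginine methyltransferases. PRMT5 rose from 31.6, 32.5 and 29.1 to 86.7, 83.5 and 79.4 FPKM, PRMT1 from 57.7 ± 3.68 to 136 ± 3.82 FPKM and PRMT3 from 4.38 ± 0.456 to 10.9 ± 0.20 FPKM. HDAC5 and KAT2B fell (log2 fold changes -1.23 and -1.14). Of ubiquitin ligases 6 of 45 rose and 19 fell, the falls near the 40.9% of all tested genes. TRIM31, a ligase of glandular epithelium, fell from 19.8, 21.3 and 18.5 to 2.31, 2.79 and 2.25 FPKM, FBXO32 from 5.2 ± 0.363 to 0.799 ± 0.178 FPKM and TRIM29 from 35.8 ± 1.46 to 11 ± 0.25 FPKM. TRAF1 rose from 1.44 ± 0.14 to 5.36 ± 0.143 FPKM.

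Genes of ribosome making rose in nearly every member. RNA polymerase I and III and nucleolar processing genes, which make and trim ribosomal RNA, rose in 72 of 78 and fell in 1 (median 1.01), and 39 of them at least 2-fold. POLR1E, a polymerase I subunit, held 8.58, 9.54 and 8.71 FPKM under vehicle and 31.1, 33.3 and 30.3 FPKM under WB436B, and NOP56, a core protein of C/D small nucleolar particles, 26.8, 26.3 and 28.4 and 89.6, 73.9 and 90.6 FPKM. MRTO4, a ribosome assembly factor, rose from 24.3 ± 0.223 to 77.7 ± 1.55 FPKM. The list of genes known to respond to MYC rose in 18 of 21 and fell in 1 (median 1.04). MYC itself, which stands in that list, was not called. Several of these, NCL, NOP56, CTPS1 and ODC1 among them, also stand in other lists. Rises far outnumbered falls in both lists under median-of-ratios and quantile scaling too.

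Protein folding genes also rose in most members. HSPA8, the constitutive HSP70, stood at 111, 112 and 125 FPKM and then at 582, 553 and 502 FPKM, a mean 4.7-fold higher, with the SE of its log2 fold change at 0.0659. HSPH1, its nucleotide exchange factor, rose from 9.91, 10.5 and 10.1 to 36.1, 37.3 and 37.8 FPKM, and FKBP4, an HSP90 co-chaperone, from 20.8 ± 1.1 to 69 ± 2.27 FPKM. CHORDC1, another HSP90 partner, rose from 2.69 ± 0.215 to 9.57 ± 0.252 FPKM, HSP90AA1 from 226 ± 10.5 to 608 ± 9.12 FPKM and HSPD1, the mitochondrial chaperonin, from 94.6 ± 6.42 to 249 ± 0.642 FPKM. Of 36 heat-shock chaperone genes 25 rose and 6 fell. HSPA1A and HSPA1B, near-identical copies and classic heat-shock targets, stood at 77.3 and 54.9 FPKM and at 73.5 and 50.2 FPKM (both called lower), and HSPB1, the small heat-shock protein HSP27, fell by 1.04 on the log2 scale. BAG3, a co-chaperone of stressed cells, was not called on the deposited values but was called higher under median-of-ratios scaling (61.6 and 64.2 FPKM). CCT chaperonin and prefoldin genes, which fold actin and tubulin, rose in 14 of 15 and none fell (median 0.88). CCT2 rose from 38.9, 38.2 and 41.4 to 99.6, 101 and 101 FPKM, and PFDN2 from 35.5 ± 2.34 to 84.4 ± 4.91 FPKM. PFDN5 was the member not called (25.7 and 25.2 FPKM).

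Nucleoporins and nuclear transport receptors rose in 43 of 54 and fell in 5 (3 without vehicle 1 or vehicle 2), RCC1 from 22.9 ± 3.05 to 56.4 ± 1.62 FPKM and the export factor XPO6 from 11.6 ± 0.419 to 26.5 ± 1.64 FPKM. Mitochondrial ribosome and import genes rose in 64 of 98 and fell in 3 (1 without vehicle 3), with TOMM40, the pore of the outer membrane, going from 23.9 ± 0.391 to 60.5 ± 2.13 FPKM and GRPEL1 from 8.64 ± 1.72 to 25.1 ± 0.572 FPKM. TOMM6 showed the largest change of all tested genes (3.98), but it stood at 82.2, 22.5 and 9.21 FPKM in the treated libraries and another gene model covers every one of its exon bases, so its value is uncertain. Translation factors rose in 33 of 49 and fell in 3, EIF2B3 from 4.03 ± 0.212 to 11.2 ± 0.739 FPKM. Aminoacyl-tRNA synthetases rose in 17 of 36 and fell in 8, with FARSB at a log2 fold change of 1.32 and PARS2, the mitochondrial prolyl enzyme, at -0.72. Proteasome subunits rose in 28 of 43 and fell in 5. The largest decreases among the 5 were the immunoproteasome subunits PSMB10 and PSMB9, at -1.21 and -0.97.

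**Figure D5:**
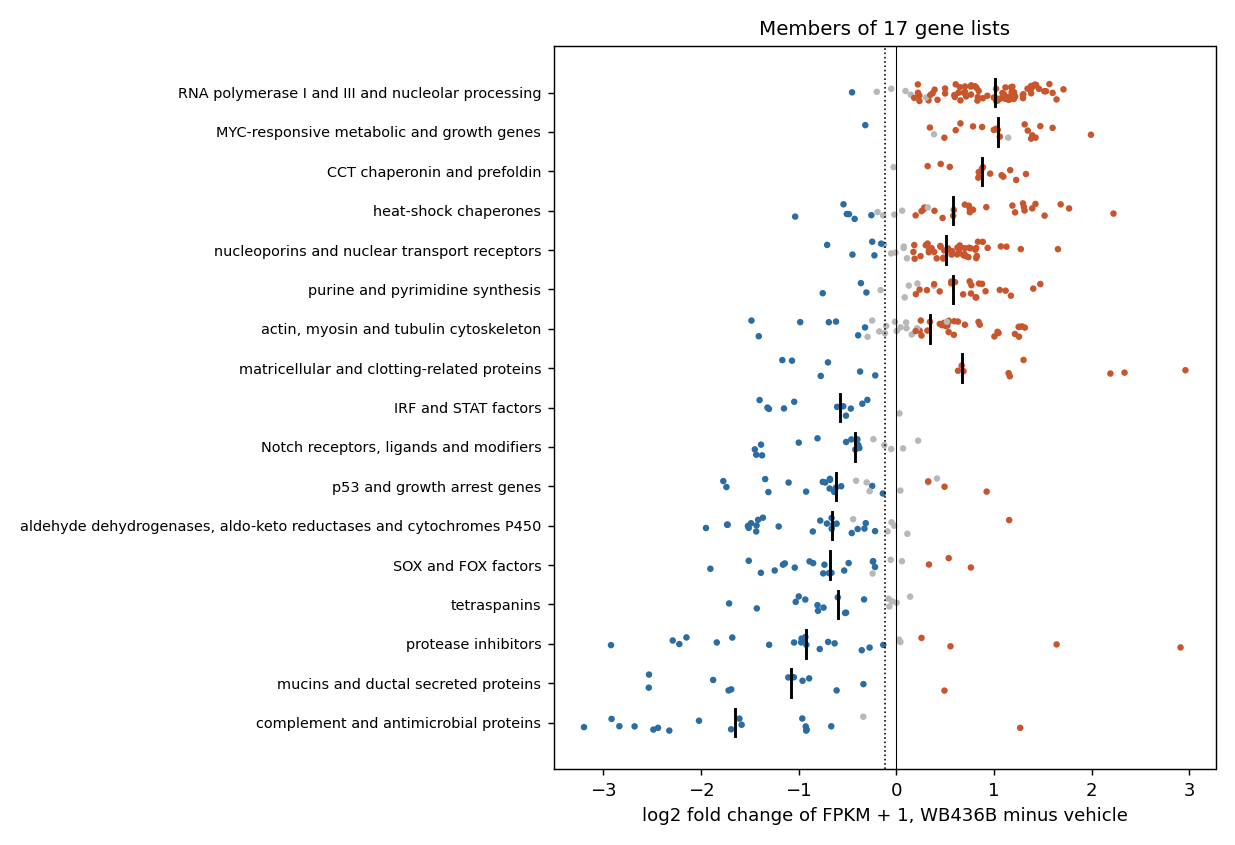
Each point is a tested member of one of 17 lists at its log2 fold change, orange where higher, blue where lower and grey where not called, with a bar at the list's median, a solid line at 0 and a dotted line at the median of all tested genes. Nucleolar genes lie almost wholly to the right and complement genes almost wholly to the left, while protease inhibitors reach both ends through SERPINB2 and PI3.

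The cytoskeleton list rose in 29 of 49 and fell in 7. FLNA, which cross-links actin, rose from 190.5, 176 and 153 to 410.4, 421 and 464 FPKM, ACTB from 271, 366 and 372 to 849.7, 871 and 681 FPKM, and ZYX by 1.26 on the log2 scale. MYL9 stood at 0.524 ± 0.0388 and 2.73 ± 0.366 FPKM. TUBB, a beta tubulin, fell from 262, 264 and 258 to 97.7, 98 and 97.9 FPKM, and the non-muscle myosin MYH14 from 19.99 ± 1.16 to 6.5 ± 0.227 FPKM. ANKRD1, a muscle-type ankyrin protein known as a YAP and SRF target, rose from 7.06, 6.87 and 7.91 to 48, 49.8 and 46 FPKM. In the keratin and cornified envelope list 8 of 26 rose and 13 fell. KRT19 fell from 710.2 ± 24 to 334 ± 12.4 FPKM and KRT13 from 318 ± 9.67 to 152 ± 11.2 FPKM, whereas KRT17 rose from 377 ± 1.82 to 775 ± 18 FPKM.

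Several other lists held mostly decreases. Autophagy and lysosome genes fell in 38 of 55 and rose in 4 (2 without vehicle 2 or WB436B 1), with the protease CTSB from 31.9 ± 6.44 to 11.4 ± 2.55 FPKM and the kinase ULK1 from 5.4 ± 0.195 to 1.53 ± 0.196 FPKM. p53 and growth arrest genes fell in 16 of 25 and rose in 3, with CDKN2C, an inhibitor of CDK4 and CDK6, at a log2 fold change of -1.34. TP53INP1 stood at 3.41 ± 0.216 and 0.29 ± 0.043 FPKM. CDKN1A, the p21 inhibitor, was not called (22.4 and 26.5 FPKM). Notch receptors, ligands and modifiers fell in 12 of 17 and none rose on the deposited values, with up to 2 higher under the other scalings and 1 without vehicle 2. LFNG, which sugars the Notch receptor, fell from 5.46 ± 0.155 to 1.4 ± 0.20 FPKM and the ligand JAG2 from 23.5 ± 3.33 to 11.3 ± 2.65 FPKM, while JAG1 was not called (38.9 and 37.4 FPKM). Of the BMP and TGF-beta transducers and targets 10 of 15 fell and none rose (1 was higher under each other scaling), ID1 and SMAD3 (51.6 ± 1.25 to 22.9 ± 0.461 FPKM) first. ID3 was not called (1.56 and 2.11 FPKM), but it was under some alternatives, among them without vehicle 1 (0.44) or WB436B 3 (0.41), each of which also gave the list 1 rise.

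Cell death genes fell in 19 of 45, near the 40.9% of all tested genes, and rose in 8, against 26%. BNIP3L, a mitophagy receptor, fell from 30.6 ± 2.28 to 9.97 ± 1.26 FPKM and the necroptosis kinase RIPK3 from 3.9 ± 0.402 to 1.17 ± 0.151 FPKM. The BH3-only gene BMF stood at 2.47 ± 0.338 and 0.268 ± 0.075 FPKM. The TRAIL receptor genes moved little, TNFRSF10B from 44.5 ± 0.76 to 40.4 ± 0.466 FPKM and TNFRSF10A from 14.5 ± 1.79 to 17.1 ± 0.152 FPKM (the first called lower, the second higher). Both calls rested on the settings: TNFRSF10B was at 0.0028 on the log2 scale after median-of-ratios scaling, and TNFRSF10A (log2 fold change 0.23) lost its call in most alternatives, among them without vehicle 3 (0.13). Interferon-stimulated genes stood near the shares of all tested genes (26% higher and 40.9% lower), with 12 of 51 higher and 24 lower. Median-of-ratios scaling gave 14 higher and 16 lower, and quantile normalization 14 and 23. GBP2 stood at 5.84 ± 0.36 and 0.673 ± 0.0451 FPKM. APOL6 and TRIM22 fell (log2 fold changes -1.48 and -1.41), and IFIT2 rose from 9.39 ± 0.261 to 19.6 ± 0.122 FPKM. Of 16 A-kinase anchoring and protein kinase A genes 7 rose (43.8%) and 4 fell (25%), against 26% and 40.9% of all tested genes. Their median was -0.08, against -0.11 for all tested genes, and AKAP12 alone rose at least 2-fold. Next in size to AKAP12 among them was PRKAR1B, a regulatory subunit of the kinase, from 5.42 ± 0.226 to 11.2 ± 0.428 FPKM.

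Further genes among the 30 largest changes stood outside the lists. LRP1, a large endocytic receptor that also takes up thrombospondin, fell from 21.6, 19.6 and 15.9 to 2.27, 2.2 and 2.37 FPKM. HPGD, which inactivates prostaglandins, fell from 14.5 ± 0.489 to 1.89 ± 0.107 FPKM, DDIT4, an inhibitor of mTORC1 with 41.2% of its exon bases shared, from 80.6 ± 5.6 to 13.4 ± 0.90 FPKM, and SCGB1A1, an airway secretory protein, from 15.8 ± 1.48 to 2.17 ± 0.657 FPKM. Upward, the nucleolar genes LYAR and CCDC86 rose from 4.39 ± 0.962 to 21.5 ± 0.709 and from 8.91 ± 0.546 to 41.4 ± 0.937 FPKM. MCM10, which starts DNA replication, rose from 2.51 ± 0.173 to 10.001 ± 1.17 FPKM, and the annexin ANXA3 from 17.3 ± 0.907 to 61.4 ± 1.58 FPKM. RGS4, which turns G protein signals off, stood at 0.533 ± 0.17 and 4.2 ± 0.60 FPKM.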

How the data were processed

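Total RNA of BxPC3 cells was extracted with RNeasy columns and sequenced on an Illumina platform, per the labels' protocols. The authors deposited 1 table of FPKM values for 60564 Ensembl identifiers in 9 libraries. Bowtie 0.12.2 and the mouse build mm8 stand in the submitters' processing notes, while the identifiers are human, so no coordinates were taken from the table. Neither the program behind FPKM nor the strandedness is given in the sources used here. Of the identifiers 2796 have no symbol, 27 symbols turned into dates were restored, and 96.5% are in GENCODE 29, from which shared exon bases were computed. The table gives no counts, so depth was estimated from the steps of low values.

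Genes that reached 1 FPKM in 3 or more of the 6 libraries were compared on log2(FPKM + 1) with limma 3.58.1 (R 4.3.3, variance trend, 1 mean per group, 9 libraries, 6 residual degrees of freedom, two-sided, Benjamini-Hochberg over all 12060 genes, threshold 0.05). Tested on simulated data with 200 changed genes of 12060, 89.6% of 2-fold changes were recovered. The 200 were drawn from genes above a floor of vehicle level, so that rate does not cover weak genes. They were also a far smaller share than the 66.9% of genes called in the data. Tables and figures used Python 3.11.15, pandas 2.3.3, numpy 2.4.6 and matplotlib 3.10.9. Members and gene lists were chosen with earlier results of these data known. Named are AKAP12, THBS1, TNFSF10, ID1, STAT3, SOCS3 and MYC, in each list up to 6 called members with the largest change, at least 1 FPKM on average in the higher group and no overlap between groups, up to 3 uncalled members of highest level, and up to 30 genes per direction over all tested genes. Alternatives were other pseudocounts, filters, scalings, variance models, a fit of the 6 libraries, the replicate block and leaving out each library.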

Additional observations from a re-analysis of the deposited data

How the results depend on the processing

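With a filter of 5 FPKM, 2386 genes were higher and 2253 lower of 6607 tested. That filter tests fewer weak genes. Both counts stayed within 1.5 times under the other alternatives run. With no filter they were 3148 and 7394 of 36920 genes, with pseudocounts of 0.1 and 0.5 3124 and 4927, and 3131 and 4934, and in a fit of the 6 libraries alone 3052 and 4842. Leaving out 1 library at a time gave 2855 to 3141 higher and 4562 to 4910 lower. Deviations of libraries with the same replicate number correlated at 0.0524, -0.00826 and -0.0548. These values show no visible effect shared by a number, but they cannot settle whether the cultures were paired, which the labels do not say. The fit with the replicate block called 3026 higher and 4795 lower genes, ID3 among the former (0.29, limma adjusted p = 0.0415), and did not call TNFRSF10A (0.23, limma adjusted p = 0.0745). An alternative chosen after seeing the data left out the genes that reached 1 FPKM in one group alone, which gave 3019 higher and 4003 lower of 11000. Under median-of-ratios scaling members called higher went from 3 to 5 in the CEBP, the CEACAM and the surface protease lists and from 1 to 3 among aldehyde dehydrogenases and their list, and members called lower from 5 to 1 among nucleoporins. Quantile normalization put 5 translation factors lower in place of 3. Between quantile normalization and the deposited values 1 gene called higher became lower and 26 called lower became higher. Of the 244 genes named with values, SOCS3 and the TRAIL receptor genes alone lost a call, SOCS3 under quantile normalization. TNFRSF10B alone changed sign, to 0.0028 under median-of-ratios scaling. Uncalled named genes were called under some scalings, ID3, KLF6, STAT5B and WWTR1 under both. FPKM steps of weak genes and 3 libraries per group limit the precision.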
